A study of Mus musculus with 8 samples.

Results

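Cybb, Cyba, Ncf1, Ncf4, Rac2 and Padi4 were taken by name from the 32285 genes counted in single white blood cells of mice with a subcutaneous tumor. The first 5 encode subunits of the phagocyte NADPH oxidase and the sixth a peptidylarginine deiminase. All 6 were found in the count table under the identifiers ENSMUSG00000015340 (Cybb), ENSMUSG00000006519 (Cyba), ENSMUSG00000015950 (Ncf1), ENSMUSG00000071715 (Ncf4), ENSMUSG00000033220 (Rac2) and ENSMUSG00000025330 (Padi4). Their unique molecular identifiers (UMIs, 1 per captured RNA molecule) were compared across tumor, spleen, bone marrow and blood, within cell classes set by other genes.

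The animals were female C57BL6/J mice injected under the skin of the flank with MOPC cells, a mouse oropharyngeal carcinoma line, and every group below comes from tumor-bearing mice and there were no tumor-free controls. Each tissue held wild-type mice together with mice of a knockout that the labels name only Genotype_02, and the labels tie no hashtag to a genotype. Living Gr1+ cells without the lineage markers NK1.1, FcRe, Ter119, B220 and CD3, and Gr1- cKit+ cells, were sorted, stained with 1 hashtag antibody per mouse, organ and condition, and loaded as 1 capture per tissue at about 16000 cells each. Tumors alone were digested with enzymes, for 45 min at 37 °C. Because each tissue is 1 library, tissue and library cannot be told apart in any comparison between tissues. A sum of all cells of 1 hashtag, tissue and class was the replicate, each hashtag within a tissue taken as 1 mouse, and levels are CPM, UMIs of the gene per 1000000 UMIs of the sum.

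Granulocyte progenitors were cells with at least 0.5% of UMIs from the granule genes Mpo, Elane, Prtn3 and Ctsg, which gave 142 cells of bone marrow and 5 of spleen. Immature neutrophils, with at least 1% of UMIs from Camp, Ngp and Ltf, numbered 203 in spleen, 1875 in bone marrow and 5 in blood. Mature neutrophils were cells with at least 3% of UMIs from S100a8 and S100a9, or 1% in tumor, and numbered 99 in tumor, 3108 in spleen, 1678 in bone marrow and 5850 in blood. Monocytes, with at least 2 UMIs of Ly6c2 and 1 of Csf1r, numbered 33 in tumor, 564 in spleen, 563 in bone marrow and 534 in blood, and tumor macrophages, with at least 3 UMIs of C1qa, C1qb and C1qc, numbered 49. These are 14708 of 20012 cells. Of the 20012 barcode sequences, 31 occurred in more than 1 library. The libraries held 462 cells of tumor, 6105 of spleen, 5682 of bone marrow and 7763 of blood, with median depths of 8663.5, 3461, 7999 and 3132 UMIs per cell in that order. A single hashtag could be assigned to 47% of tumor cells and to between 89.6% and 91.9% of cells of the other tissues, and 69 sums in 11 groups with at least 2 sums entered the tests.

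The NADPH oxidase of phagocytes passes electrons from NADPH across the phagosomal or plasma membrane to oxygen and makes superoxide. Cybb encodes its catalytic subunit NOX2 and Cyba the membrane partner that stabilizes it. Ncf1 encodes the cytosolic organizer subunit, Ncf4 a cytosolic subunit that binds phosphoinositides, and Rac2 the small GTPase that activates the complex in neutrophils. Padi4 encodes the nuclear enzyme that converts arginine of histones to citrulline and takes part in the release of neutrophil extracellular traps. Knockouts of oxidase subunits in mice and their loss in human chronic granulomatous disease impair the oxidative burst of phagocytes.

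The genes lie at chrX:9435252-9487766 (Cybb), chr8:122424771-122432940 (Cyba), chr5:134220053-134229628 (Ncf1), chr15:78244164-78262582 (Ncf4), chr15:78559169-78572783 (Rac2) and chr4:140745508-140774239 (Padi4) in RefSeq's annotation of GRCm38.p6, the assembly that mm10 names. RefSeq promoter windows of the same build, 300 bases around the transcript start, matched 4 of the 6 genes, all on the minus strand: Cybb at chrX:9469275-9469574, Cyba at chr8:122432891-122433190, Ncf1 at chr5:134229576-134229875 and Padi4 at chr4:140774154-140774453. They are printed 5′ to 3′ because the 4 genes moved apart from each other in the comparisons below, and capitals mark matches on either strand to GAGGAA (the core that PU.1 binds), TTGCNNAA (C/EBP), TTCNNNGAA (STAT) or GAAA, any 2 bases and GAAA (IRF).
Cybb: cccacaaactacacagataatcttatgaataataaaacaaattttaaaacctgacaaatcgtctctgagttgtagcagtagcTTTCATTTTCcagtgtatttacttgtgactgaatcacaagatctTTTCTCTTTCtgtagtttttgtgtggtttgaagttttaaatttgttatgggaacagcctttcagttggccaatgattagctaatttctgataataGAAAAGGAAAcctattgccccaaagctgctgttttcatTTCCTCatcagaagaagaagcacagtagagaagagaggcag
Cyba: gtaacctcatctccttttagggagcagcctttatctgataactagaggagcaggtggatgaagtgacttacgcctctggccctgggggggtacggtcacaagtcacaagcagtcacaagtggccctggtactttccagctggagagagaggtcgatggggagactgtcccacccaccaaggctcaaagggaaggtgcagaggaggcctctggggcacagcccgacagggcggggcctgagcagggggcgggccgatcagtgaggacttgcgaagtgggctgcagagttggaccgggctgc
Ncf1: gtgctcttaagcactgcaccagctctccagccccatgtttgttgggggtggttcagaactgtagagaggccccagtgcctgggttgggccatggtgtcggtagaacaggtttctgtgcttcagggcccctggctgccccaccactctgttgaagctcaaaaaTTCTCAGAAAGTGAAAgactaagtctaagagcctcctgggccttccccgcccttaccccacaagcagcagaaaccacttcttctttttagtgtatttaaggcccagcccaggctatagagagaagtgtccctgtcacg
Padi4: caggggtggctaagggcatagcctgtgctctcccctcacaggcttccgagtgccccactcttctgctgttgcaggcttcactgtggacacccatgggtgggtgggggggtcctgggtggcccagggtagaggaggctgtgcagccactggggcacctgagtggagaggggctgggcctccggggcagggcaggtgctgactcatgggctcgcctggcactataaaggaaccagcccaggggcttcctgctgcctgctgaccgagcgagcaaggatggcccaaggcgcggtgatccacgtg

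The Cybb window held 3 matches to the IRF motif, which begin at bases 83, 127 and 222 counted from its 5′ end, and 1 match to the PU.1 core at base 260. This window lies inside the Cybb gene span given above, around a transcript start within it. The windows of Cyba, Ncf1 and Padi4 cross the upper end of their gene span. The Ncf1 window held a STAT match at base 163 and an IRF match at base 169, which overlap. The windows of Cyba and Padi4 held no match to these letters. Over 32851 promoter windows of this length, 28.3% held the PU.1 core, 10.8% the C/EBP motif, 8.3% the STAT motif and 3.44% the IRF motif. The windows also differed in composition: Cybb had 35.3% G and C with 1 CpG, Ncf1 54% with 3, Cyba 60.7% with 9 and Padi4 66.3% with 8, against medians of 52.7% and 7 over all windows. A match is a run of letters and no evidence of binding.

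The 6 genes did not share 1 profile over classes. Cybb was highest in immature neutrophils and monocytes and low in mature neutrophils of blood, spleen and tumor, while Padi4 was highest in mature neutrophils of bone marrow and near 0 in mature neutrophils of the tumor. In order, Cybb averaged 1747 CPM in immature neutrophils of spleen, 1474 in those of bone marrow, 1144, 1066 and 792 in monocytes of spleen, blood and bone marrow, 278 in mature neutrophils of bone marrow, 259 in tumor macrophages, 105, 69.3 and 55 in mature neutrophils of tumor, spleen and blood, and 35 in progenitors. The ranges over hashtags of neighbours in that order overlapped except at 3 steps: between immature neutrophils of spleen and of bone marrow, below the monocytes of bone marrow, and below the tumor macrophages. Padi4 averaged 372 CPM in mature neutrophils of bone marrow, 245 in those of spleen and of blood, 205 and 176 in immature neutrophils of bone marrow and spleen, 42.8, 36.3 and 27.4 in monocytes of blood, spleen and bone marrow, 6.53 in progenitors, 6.33 in mature neutrophils of tumor and 0 in tumor macrophages. In that order the ranges separated below mature neutrophils of bone marrow, below immature neutrophils of spleen and below monocytes of bone marrow.

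**Figure D1:**
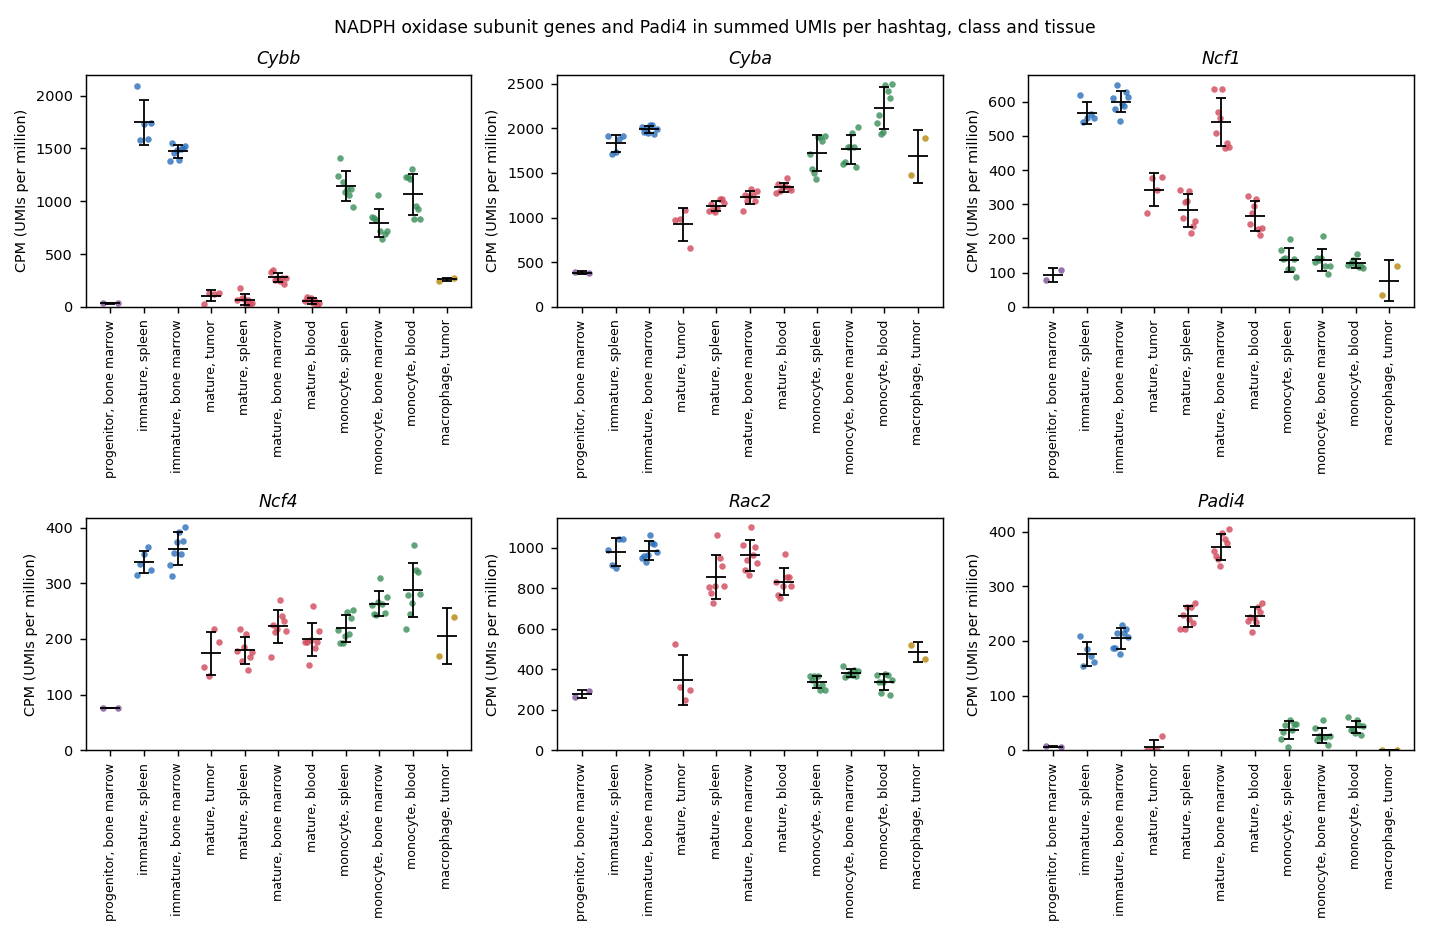
Level of each gene in CPM (y axis, from 0) in every sum of a hashtag, with 1 point per sum, by cell class and tissue (x axis); the black bar and whiskers give the mean and 1 SD. Cybb stood between 1382 and 2096 CPM in all sums of immature neutrophils and between 15.8 and 346 CPM in all sums of mature neutrophils, while Padi4 was at 0 in 3 of 4 sums of mature neutrophils of tumor.

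Cyba, Ncf4 and Rac2 spanned a narrower range. Cyba was highest in monocytes of blood at 2229 ± 233 CPM (SD, n = 8) and lowest in progenitors at 384 ± 12.3 CPM (n = 2). Ncf4 was highest in immature neutrophils of bone marrow at 362 ± 29.8 CPM (n = 8) and lowest in progenitors at 75.8 ± 0.404 CPM (n = 2), and all neighbours in its order overlapped except progenitors. Rac2 stood between 726 and 1103 CPM in every sum of immature and mature neutrophils outside the tumor, against 249 to 525 CPM in mature neutrophils of tumor and 272 to 413 CPM in monocytes of spleen, bone marrow and blood. Ncf1 ranged from 466.1 to 648 CPM over sums of neutrophils of bone marrow, immature and mature, and stayed at or below 206 CPM in every sum of monocytes. As a description over 11 group means, log2(CPM + 1) of Cyba and Ncf4 correlated at r = 0.94, of Cybb and Ncf4 at 0.84, of Cybb and Cyba at 0.80, of Ncf1 and Rac2 at 0.78 and of Cybb and Padi4 at 0.18; the means within a tissue share a library.

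From progenitors to immature neutrophils of bone marrow, the transcripts of the whole set were higher. Cybb lay between 1382 and 1552 CPM, with a median of 1489, in 8 sums of immature neutrophils, against 37.8 and 32.2 CPM in 2 sums of progenitors. Padi4 lay between 176 and 229.7 CPM, with a median of 211, in immature neutrophils, against 7.2 and 5.86 CPM, 4 UMIs in each sum, in progenitors. No sum of one class reached those of the other for any of the 6 genes, but the share of all genes without overlap was not counted. The log2 fold changes of immature over progenitor cells were 5.40 ± 0.45 (SE) for Cybb and 4.97 ± 0.41 for Padi4 (adjusted p = 2.56e-17 and 2.32e-17). Ncf1 rose by 2.69 ± 0.22, Cyba by 2.38 ± 0.13, Ncf4 by 2.25 ± 0.18 and Rac2 by 1.82 ± 0.14 on the log2 scale, with adjusted p of 1.88e-17 or less. In this comparison 71.6% of 7834 tested genes were called, 20% as higher and 51.6% as lower, and the median log2 fold change over them was -0.69 against 2.54 over the 6 genes. Among calls, 27.9% were higher with total UMIs as library sizes and 61.8% with TMM factors, which moved the median of all genes by 1.03; the 6 genes rose under both.

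The oxidase partners followed: 9 of the 11 listed were higher in immature neutrophils and none lower. Over all tested genes, 20% were higher and 51.6% lower. Prkcb, a kinase that phosphorylates Ncf1 protein, had a log2 fold change of 2.97 ± 0.25. A list named NADPH supply held enzymes of the pentose phosphate pathway, malic enzymes and isocitrate dehydrogenases, not all of which make NADPH themselves. Of its 9 tested genes 4 were higher and 3 lower. G6pdx, the first enzyme of the pentose phosphate pathway, rose by 2.83 ± 0.24 and the mitochondrial Idh2 fell by 5.25 ± 0.28 on the log2 scale. Of 14 tested genes for handling reactive oxygen 4 were higher and 10 lower, with the peroxiredoxins Prdx2 at -3.88 ± 0.22 and Prdx1 at -3.57 ± 0.25. Heme oxygenase Hmox1 was at 3.54 ± 1.06, a call that ended without bone marrow replicate 3 (2.67, adjusted p = 0.0641).

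Between immature and mature neutrophils of bone marrow the set came apart. Cybb lay between 219.9 and 346 CPM, with a median of 274, in mature neutrophils, against 1382 to 1552 CPM with a median of 1489 in immature ones. Every mature sum was below every immature one, and the log2 fold change was -2.41 ± 0.19 (adjusted p = 4.06e-18). Cyba averaged 1224 ± 76 CPM in mature and 1990.2 ± 39.6 CPM in immature neutrophils (SD, n = 8 each) and Ncf4 223 ± 29.2 and 362 ± 29.8 CPM. Both fell by 0.70 on the log2 scale (SE 0.07 and 0.09, adjusted p = 4.58e-14 and 2.42e-10). Padi4 went the other way: it lay between 338 and 405 CPM, with a median of 372, in mature neutrophils, against 176 to 229.7 CPM with a median of 211 in immature ones, a log2 fold change of 0.86 ± 0.13 (adjusted p = 2.46e-08) with no overlap. Rac2 averaged 962 ± 76.7 CPM in mature and 985 ± 45.4 CPM in immature neutrophils, and its difference of -0.03 ± 0.07 did not pass the test (adjusted p = 0.686). DESeq2, which moved the median of all genes by -0.25 here, called Rac2 lower (-0.28, adjusted p = 0.00152).

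Ncf1 averaged 540.3 ± 71 CPM in mature and 601 ± 31.8 CPM in immature neutrophils, and its log2 fold change of -0.16 ± 0.11 did not pass (adjusted p = 0.192). With the hashtag as a replicate block it was -0.17 with an adjusted p of 0.0465, and in a fit of the compared groups alone -0.16 with an adjusted p of 0.0462. DESeq2 gave -0.40 (adjusted p = 0.000825) and cells thinned to 1000 UMIs -0.46 (adjusted p = 0.000652), so whether Ncf1 is called depends on the processing. Of the 6 genes, 1 was called higher and 3 lower, where 70.8% of 7926 tested genes were called, 33.2% higher and 37.6% lower. Among calls, 46.9% were higher with total UMIs and 35.4% with DESeq2. Per cell, where no scaling enters, Cybb had 1.04 UMIs in mature neutrophils of the sums, against 15.4 in immature ones, and Padi4 1.41 against 2.2 UMIs, with median depths of 3657.5 UMIs in mature and 9480 UMIs in immature cells. The higher level of Padi4 in mature neutrophils is thus relative to all RNA captured.

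Partner genes split in the same comparison, with 8 of 11 higher in mature neutrophils and 3 lower. Over all tested genes, 33.2% were higher and 37.6% lower. Prkcd, a kinase that acts on the cytosolic subunits, was higher by a log2 fold change of 1.10 ± 0.10 and Dock2, an exchange factor for Rac, by 1.05 ± 0.09. Hvcn1, the proton channel that balances the charge the oxidase moves, fell by 4.03 ± 0.23 and Arhgdib, which holds Rac in the cytosol, by 0.97 ± 0.08 on the log2 scale. Among genes for handling reactive oxygen, 6 were higher and 6 lower of 14 tested, with Hmox1 at 2.25 ± 0.22, glutathione reductase Gsr at 1.35 ± 0.08 and catalase Cat at -1.39 ± 0.36. In the NADPH supply list 2 were higher and 5 lower of 9 tested, led by malic enzyme Me2 (-2.61 ± 0.21), Pgls (-2.34 ± 0.12) and Rpia (-1.61 ± 0.20).

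Binning marrow neutrophils by their share of the granule transcripts Camp, Ngp and Ltf showed where along this axis each gene changed. Cybb averaged 176 ± 39.5 CPM in cells below 0.1%, 386 ± 63.6 between 0.1 and 1%, 768 ± 114 between 1 and 3%, 1542 ± 85.3 between 3 and 10% and 1554 ± 57.5 at 10% and more. It thus differed over the low shares and was flat over the 2 highest bins. Padi4 averaged 339.8 ± 31.9, 406 ± 39.5, 385 ± 60.4, 225 ± 33 and 149 ± 11.7 CPM in the same bins and was lowest where granule transcripts were most abundant. Ncf1 was highest in the middle, with 469 ± 108, 615 ± 59.4, 721 ± 64, 644 ± 51.5 and 517 ± 20.6 CPM. Cyba and Ncf4 were higher with each bin, to 2236 ± 75.6 and 403 ± 25.7 CPM at the top, against 1221 ± 129 and 206 ± 25.9 CPM at the bottom, while Rac2 stayed between 958 and 1006 CPM. The 6 to 8 hashtag sums of the bins held 919, 644, 217, 846 and 522 cells, their median depths ran from 3177 to 11717 UMIs per cell, and the bins were set by other genes of the same cells, so these values are a description.

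**Figure D2:**
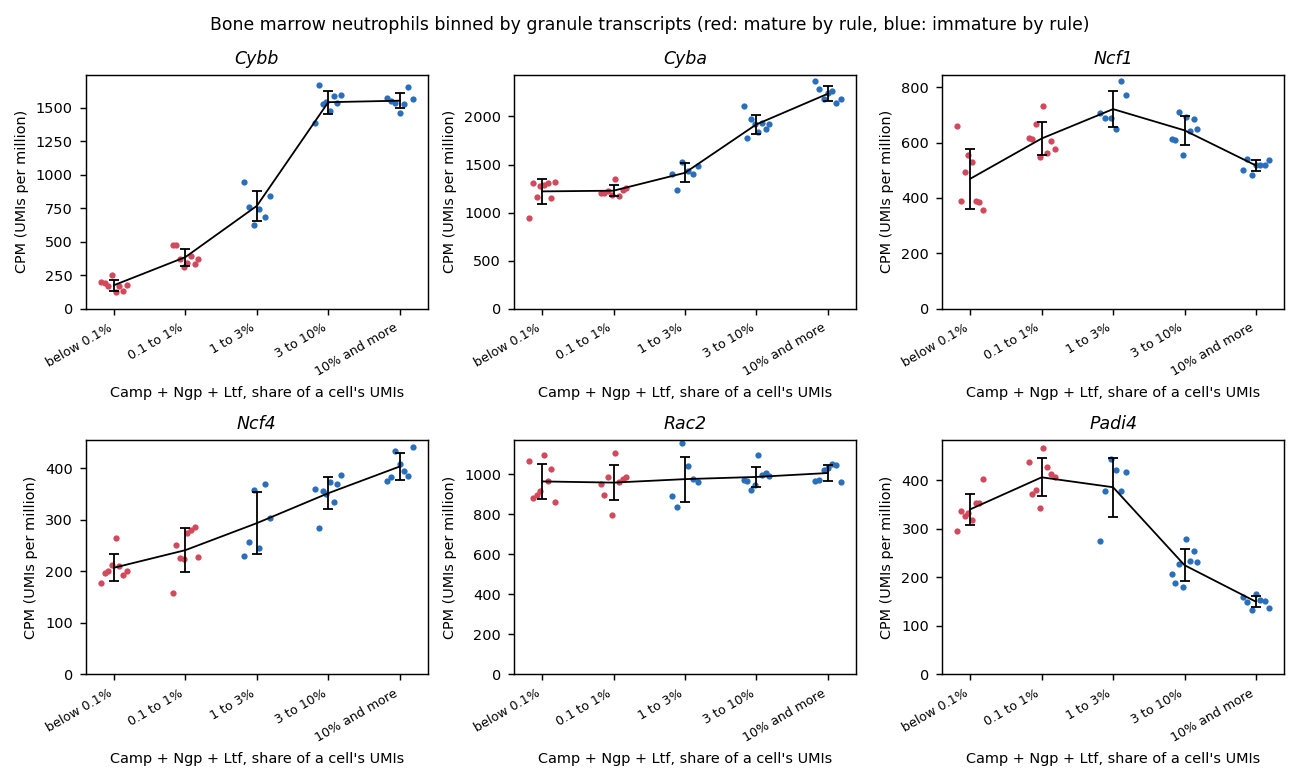
Level of each gene in CPM (y axis, from 0) in bone marrow neutrophils of 1 hashtag, binned by the share of UMIs from Camp, Ngp and Ltf (x axis, low to high); points are hashtag sums, the black line joins means with whiskers of 1 SD. Cybb stood at 176 CPM in the lowest bin and 1554 CPM in the highest, Padi4 at 339.8 and 149 CPM, and Rac2 between 958 and 1006 CPM throughout.

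None of the 6 genes passed the test between immature neutrophils of spleen and of bone marrow. Cybb had 2096, 1576, 1728, 1591 and 1744 CPM in the 5 spleen sums, against 1382 to 1552 CPM, median 1489, in bone marrow. All 5 spleen sums were above all 8 marrow sums, but the log2 fold change of 0.24 ± 0.20 had an adjusted p of 0.778. Padi4 had 209, 153, 184, 172 and 162 CPM in spleen, against 176 to 229.7 CPM, median 211, in bone marrow (-0.23 ± 0.16, adjusted p = 0.714). edgeR called none of the 6 genes and 0.744% of 7527 tested genes (56), 0.306% higher and 0.438% lower, with 738 at an unadjusted p below 0.05; DESeq2 called none of the 6 either and 81 genes. Of the 56 calls 41.1% were higher in spleen with total UMIs, and with TMM factors 7.59% of 145.

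Mature neutrophils of bone marrow differed from those of blood in 4 of the 6 genes, all higher. Cybb lay between 219.9 and 346 CPM, with a median of 274, in bone marrow, against 15.8 to 89.6 CPM with a median of 55.7 in blood, a log2 fold change of 2.29 ± 0.20 (adjusted p = 1.26e-15). Ncf1 lay between 466.1 and 639 CPM, median 531, in bone marrow, against 209 to 325 CPM, median 259, in blood (1.02 ± 0.11, adjusted p = 3.71e-12), and Padi4 between 338 and 405 CPM in bone marrow, against 216 to 270.1 CPM in blood (0.61 ± 0.13, adjusted p = 5.39e-05). The groups did not overlap for these 3 genes, but the share of all genes without overlap was not counted. Rac2 averaged 962 ± 76.7 CPM in bone marrow and 831 ± 66 CPM in blood (0.21 ± 0.07, adjusted p = 0.013), a call lost with cells thinned to 1000 UMIs, with raised class thresholds and with overlapping classes kept. Cyba (-0.13 ± 0.07) and Ncf4 (0.17 ± 0.09) did not pass with total UMIs (adjusted p = 0.12 and 0.113); with TMM factors Ncf4 was called at 0.37 and Cyba turned to 0.08. DESeq2 (0.38), raised class thresholds (0.22) and leaving out blood replicate 5 (0.23) also called Ncf4, and a fit of both groups alone called Cyba (-0.13, adjusted p = 0.0303). Called were 50.4% of 7575 tested genes, 11.5% higher and 39% lower, and among calls 22.7% were higher with total UMIs and 42.4% with TMM factors, which moved the median of all genes by 0.21. Of 10 tested partners 2 were higher in bone marrow and 6 lower, with Arhgdib at 0.88 ± 0.08 and the GTPase Rap1b at -0.70 ± 0.08. Of 8 tested genes of the NADPH supply list 4 were higher and 1 lower, led by transketolase Tkt (1.44 ± 0.08). Of 13 tested genes for handling reactive oxygen 3 were higher and 2 lower, led by Gclm of glutathione synthesis (1.15 ± 0.18).

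The 7 immature neutrophil markers, all detected in both tissues, summed to 5977 to 8090 CPM in mature neutrophils of bone marrow, against 1207 to 2507 CPM in those of blood, and the 7 mature neutrophil markers to 296173 to 352745 CPM in bone marrow, against 161843 to 217963 CPM in blood. The 9 progenitor markers summed to 289.5 to 716 CPM in bone marrow, against 115 to 161 CPM in blood with Mpo and Elane at 0. In marrow neutrophils with below 0.1% of granule transcripts, Cybb lay between 124 and 249.6 CPM over 8 sums. These marker lists include the genes of the class rules, whose thresholds were the same in both tissues. The part of maturity in the differences between the tissues was not tested.

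Blood neutrophil sums also held red cell transcripts, with a mean of 3370 and up to 10010 CPM over the 5 erythroid markers (Car1 at 0); the highest sum of mature neutrophils had 134 CPM of them in bone marrow and 18.8 CPM in spleen; their part in the results was not tested. The level of Cybb in blood neutrophils was 5.16% of that in blood monocytes, and in bone marrow 35.1%. The 6 monocyte markers stood at 3.75% of their monocyte level in blood neutrophils and at 6.96% in those of bone marrow. These markers include Ly6c2 and Csf1r of the class rule, so their shares are partly set by it. The part of monocyte RNA in the Cybb level of neutrophils was not tested. Cells of blood with several or no clear hashtag had more Cybb, so that all 5850 mature cells pooled gave 92.8 CPM, against a mean of 55 ± 25 CPM over the 8 sums.

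Only Cyba separated mature neutrophils of spleen from those of blood among the 6 genes. It lay between 1062 and 1209 CPM, median 1126, in spleen, against 1276 to 1442 CPM, median 1335, in blood, with no overlap, and fell by 0.24 ± 0.07 on the log2 scale (adjusted p = 0.0096). Padi4 averaged 245 ± 18.6 CPM in spleen and 245 ± 17.2 CPM in blood (0.00 ± 0.13). Cybb averaged 69.3 ± 48.1 CPM in spleen and 55 ± 25 CPM in blood (0.33 ± 0.21, adjusted p = 0.307), with spleen replicate 2 at 175 CPM; without it the value was -0.03. Called were 16.1% of 7890 tested genes, 9.73% higher and 6.4% lower, and 60.3% of calls were higher with total UMIs against 34.8% with TMM factors. Among the 10 tested partners 2 were higher and none lower. The Cyba call was lost with raised class thresholds (-0.23, adjusted p = 0.0537).

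The log2 fold change of mature over immature neutrophils was more negative in spleen than in bone marrow for Cybb and Ncf1. From the group means, Cybb stood at 69.3 CPM in mature and 1747 CPM in immature neutrophils of spleen, against 278 and 1474 CPM in bone marrow, and Ncf1 at 282 and 567 CPM in spleen, against 540.3 and 601 CPM in bone marrow. The difference of the log2 fold changes, spleen minus bone marrow, was -2.21 ± 0.29 for Cybb (adjusted p = 7.86e-09) and -0.85 ± 0.17 for Ncf1 (adjusted p = 9.25e-05). The mature classes were not alike, since the immature neutrophil markers summed to a mean of 1539 CPM in mature neutrophils of spleen and 6599 CPM in those of bone marrow. The part of maturity in the difference was not tested. The Ncf1 difference was not called with cells thinned to 1000 UMIs (-0.38, adjusted p = 0.485). Cyba (0.01 ± 0.11), Rac2 (-0.16 ± 0.11), Ncf4 (-0.22 ± 0.14) and Padi4 (-0.37 ± 0.21) did not pass, though Padi4 did in a fit of these 4 groups alone (adjusted p = 0.0144). Called were 19.4% of 8875 tested genes, 13.9% higher and 5.52% lower; 71.6% of calls were higher with total UMIs, 58.1% with TMM factors and 33.3% with DESeq2, which called all 6 genes, each lower. Of 11 tested partners 4 were higher and 2 lower in this difference. Higher were Rap1b (0.84 ± 0.12), Rac1 (0.58 ± 0.11), Dock2 (0.57 ± 0.14) and Pak2 (0.47 ± 0.09), and lower Hvcn1 (-1.46 ± 0.46) and Arhgdib (-0.82 ± 0.13). With DESeq2, which moved the median of all genes by -0.30, the calls of Rac1 (0.29), Dock2 (0.26) and Pak2 (0.17) were lost, and with cells thinned to 1000 UMIs those of Rap1b (0.79), Rac1 (0.82) and Pak2 (0.05).

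**Figure D3:**
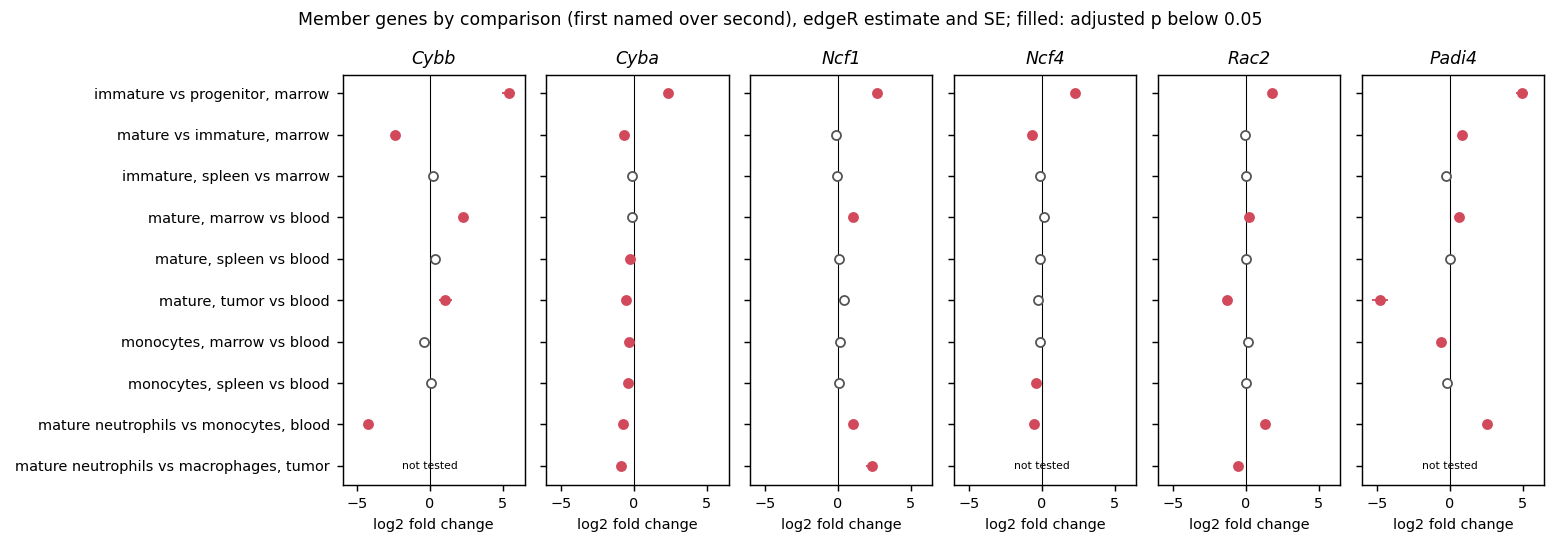
Log2 fold change (x axis) of each gene in 10 comparisons (y axis; the first group named over the second), with whiskers of 1 SE from the edgeR fit; filled points had an adjusted p below 0.05. All 6 genes were higher in immature neutrophils than in progenitors, and Padi4 in mature neutrophils was 4.80 lower in tumor than in blood.

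Mature neutrophils of the tumor had almost no Padi4 and less Rac2 than those of blood. Padi4 had 0, 0, 0 and 25.3 CPM in the 4 tumor sums, 3 UMIs in all, against 216 to 270.1 CPM, median 243, in blood. At the mean level of blood the same sums would have held 9.79, 38.4, 7.87 and 29 UMIs, and the limit that 3 counts set was 75, 19.1, 93.3 and 25.3 CPM per sum. The ratio of tumor over blood in the summed UMIs was -4.81 on the log2 scale, with an exact 95% counting interval of -7.09 to -3.26, and over all 99 tumor and 5850 blood cells, with 13 and 4788 UMIs, -3.64 with an interval of -4.55 to -2.87; the fitted value was -4.80 ± 0.53 (adjusted p = 5.04e-12). All 3 UMIs lay in tumor replicate 6. Leaving out 1 replicate gave fitted values of -11.0 to -3.96, lowest without tumor replicate 6, where every remaining tumor sum was at 0 and the fitted value is no bound, and highest without tumor replicate 3. Rac2 had 525, 312, 249 and 296 CPM in tumor, against 753 to 967 CPM, median 821, in blood, a log2 fold change of -1.32 ± 0.12 (adjusted p = 1.05e-14) with no overlap. Cyba had 975, 981, 1089 and 659 CPM in tumor, against 1276 to 1442 CPM, median 1335, in blood (-0.57 ± 0.10, adjusted p = 2.79e-06), again with no overlap.

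Cybb had 25, 134, 124 and 135 CPM in tumor, against 15.8 to 89.6 CPM, median 55.7, in blood. The tumor sums were those of hashtags 2, 3, 4 and 6, and the blood sums those of hashtags 1 to 8. In blood neutrophils, Cybb was higher in every sum of hashtags 1 to 4 than in any of hashtags 5 to 8. The part of this unlike make-up of hashtags in the tumor values was not tested. The log2 fold change of 1.07 ± 0.43 passed narrowly (adjusted p = 0.0404) and rested on 42 UMIs in tumor. It was not called with TMM factors (0.58, adjusted p = 0.23), in a fit of both groups alone, with cells thinned to 1000 UMIs or with a stricter hashtag margin (1.07, 1.34 and 1.10, adjusted p = 0.11, 0.33 and 0.329), turned to -0.08 (adjusted p = 0.939) with raised class thresholds, and lost the call without tumor replicate 3, 4 or 6 or blood replicate 5, 7 or 8; over all cells the log2 ratio was 0.24 with a counting interval of -0.12 to 0.57. Ncf1 had 275, 376, 342 and 380.1 CPM in tumor, against 209 to 325 CPM, median 259, in blood (0.42 ± 0.18, adjusted p = 0.0585); leaving out blood replicate 1, 4 or 5 or tumor replicate 2 gave adjusted p between 0.0361 and 0.0496, a stricter hashtag margin called it at 0.996 (adjusted p = 0.00172) and leaving out cells over 5% mitochondrial UMIs at 0.49 (adjusted p = 0.0416), and TMM factors turned it to -0.11. Ncf4 averaged 174 ± 38.8 CPM in tumor and 199 ± 30.2 CPM in blood (-0.26 ± 0.18, adjusted p = 0.246); TMM factors, which moved the median of all genes by -0.50, gave -0.79 (adjusted p = 0.00144). Called were 41.7% of 7167 tested genes, 20.2% higher and 21.5% lower, and 48.4% of calls were higher with total UMIs against 26.3% with TMM factors.

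The tumor neutrophils met a lower threshold of the rule and their other markers differed too. The 7 mature neutrophil markers, all detected, summed to 41524 to 65317 CPM in tumor, against 161843 to 217963 CPM in blood. The 8 macrophage markers, all detected, summed to 100 to 2053 CPM in tumor neutrophils, against 156 to 347 CPM in blood with C1qa and C1qb at 0. The 6 monocyte markers, all detected in both, summed to 431 to 2177 CPM in tumor, against 180.5 to 335 CPM in blood. The 5 T and NK cell markers summed to 0 to 900.0 CPM in tumor with Gzma at 0, against 7.5 to 29.5 CPM in blood. The median share of mitochondrial UMIs was 0.688% in tumor and 0.0646% in blood. The part of these cells and of RNA quality in the changes above was not tested.

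Genes of the partner and enzyme lists were also compared between tumor and blood neutrophils. Over all 7167 tested genes, 20.2% were higher and 21.5% lower, and counts in these lists are to be read against those shares. Of 10 tested partners 1 was higher and 4 lower. Prkcb fell by 2.39 ± 0.24, Arhgdib by 0.68 ± 0.13, Pak2, a kinase downstream of Rac, by 0.58 ± 0.10 and Dock2 by 0.43 ± 0.13 on the log2 scale. Rac1, the other Rac of these cells, was at 0.35 ± 0.11, and at -0.19 with TMM factors (adjusted p = 0.507), so its direction depends on the scaling. Without tumor replicate 3 the calls of Dock2 (-0.36, adjusted p = 0.0672) and Rac1 (0.27, adjusted p = 0.184) were lost. Cells thinned to 1000 UMIs ended the calls of Arhgdib (-0.78, adjusted p = 0.0613), Pak2 (-0.37, adjusted p = 0.436), Dock2 (-0.67, adjusted p = 0.0712), Rac1 (0.29, adjusted p = 0.616) and, below, G6pdx (-1.67, adjusted p = 0.341). A stricter hashtag margin ended those of Dock2 (-0.49, adjusted p = 0.0554), Rac1 (0.21, adjusted p = 0.52), G6pdx (-1.89, adjusted p = 0.0805) and Prdx1 (1.16, adjusted p = 0.564). Of 8 tested genes of the NADPH supply list none was higher and 4 were lower. Among the lower were transaldolase Taldo1 (-2.02 ± 0.12), G6pdx (-1.90 ± 0.38) and Pgd (-1.22 ± 0.18), all enzymes of the pentose phosphate pathway. Of 13 tested genes for handling reactive oxygen 5 were higher and 4 lower. The mitochondrial superoxide dismutase Sod2 averaged 369 ± 141 CPM in tumor and 17.5 ± 4.88 CPM in blood (4.21 ± 0.24), and thioredoxin reductase Txnrd1 347 ± 183 CPM in tumor and 24.8 ± 4.17 CPM in blood (4.02 ± 0.23), with Prdx1 at 2.63 ± 0.46. The median log2 fold change was -1.14 over the NADPH supply list, 0.21 over the genes for handling reactive oxygen and -0.13 over all tested genes.

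Within the tumor, 3 of the 6 genes had the 100 UMIs that the test needed in neutrophils and macrophages. Ncf1 had 275, 376, 342 and 380.1 CPM in neutrophils, against 33.8 and 120.1 CPM in the 2 sums of macrophages (2.31 ± 0.40, adjusted p = 9.85e-07). The macrophage sums rested on 11 UMIs of Ncf1; the value was 1.63 without tumor replicate 2 and 3.40 without tumor replicate 4, and all cells pooled gave 324 CPM in neutrophils and 132 CPM in macrophages, a log2 ratio of 1.29 with a counting interval of 0.91 to 1.68. Cyba averaged 926 ± 186 CPM in neutrophils (n = 4) and 1684 ± 293 CPM in macrophages (n = 2), a log2 fold change of -0.89 ± 0.14 (adjusted p = 9.44e-08) that was lost with TMM factors (-0.32, adjusted p = 0.09) and in a fit of these 2 groups alone (-0.87, adjusted p = 0.1). Rac2 averaged 345 ± 123 CPM in neutrophils and 484 ± 48.1 CPM in macrophages (-0.55 ± 0.18, adjusted p = 0.0112); its sign turned with TMM factors (0.06) and with overlapping classes kept (0.30), the call was lost without tumor replicate 2 (-0.61, adjusted p = 0.0884), with DESeq2, with no filter, in a fit of both groups alone and with a stricter hashtag margin (adjusted p between 0.0568 and 0.334), and all cells pooled gave 325 CPM in neutrophils and 330.1 CPM in macrophages. Untested were Cybb, with 105 ± 53.3 CPM in neutrophils and 248 and 270.2 CPM in macrophages, Ncf4, with 174 ± 38.8 CPM in neutrophils and 169 and 240.2 CPM in macrophages, and Padi4, with 13 UMIs in all 99 neutrophils and 1 in all 49 macrophages. Called were 69.7% of 907 tested genes, 43.1% higher and 26.6% lower, and 61.9% of calls were higher with total UMIs against 78.8% with TMM factors, which moved the median by 0.62. Of 5 tested partners 1, Dock2, was higher in neutrophils (1.05 ± 0.22) and none lower; in a fit of both groups alone its adjusted p was 0.0976. The only sum of tumor monocytes, 5 cells, had 540.0 CPM of Cybb and 1393 of Cyba, which was not tested against blood.

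All 6 genes differed between mature neutrophils and monocytes of blood, 3 higher and 3 lower in neutrophils. Cybb lay between 15.8 and 89.6 CPM, median 55.7, in mature neutrophils, against 828 to 1301 CPM, median 1086, in monocytes, a log2 fold change of -4.24 ± 0.21 (adjusted p = 2.3e-29). Cyba averaged 1339 ± 51 CPM in neutrophils and 2229 ± 233 CPM in monocytes (-0.74 ± 0.07, adjusted p = 2e-15). Padi4 averaged 245 ± 17.2 CPM in neutrophils and 42.8 ± 11.3 CPM in monocytes (2.54 ± 0.16), Rac2 831 ± 66 and 337 ± 39.9 CPM (1.30 ± 0.08), and Ncf1 265 ± 43.7 and 127 ± 13.1 CPM (1.06 ± 0.12), each with an adjusted p of 1.53e-12 or less. These 5 genes had no overlap between the classes, but the share of all genes without overlap was not counted. Ncf4 averaged 199 ± 30.2 CPM in neutrophils and 288 ± 48.2 CPM in monocytes (-0.55 ± 0.09, adjusted p = 8.47e-08) with overlap. Called were 83.3% of 8552 tested genes, 34.1% higher and 49.2% lower, so that 6 of 6 called is close to that background.

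TMM factors moved the median of all genes by 0.60 in this comparison, and the share of calls that were higher was 41% with total UMIs and 55.9% with TMM factors. Ncf4 also lost its call with cells thinned to 1000 UMIs (-0.26, adjusted p = 0.143). With TMM factors Ncf4 turned to 0.07 (adjusted p = 0.968) and Cyba to -0.12 (adjusted p = 0.199), so for these 2 the difference between neutrophils and monocytes depends on the scaling, while Cybb, Padi4, Rac2 and Ncf1 kept sign and call. Prkcb was at 2.23 ± 0.12. Of 10 tested partners 5 were higher and 4 lower, Rap1a, a GTPase found with the membrane subunits, among the lower (-1.12 ± 0.07). Padi2, another deiminase, stood opposite to Padi4: it averaged 0.924 ± 0.959 CPM in neutrophils and 42.8 ± 9.19 CPM in monocytes (-5.38 ± 0.33, adjusted p = 9.31e-24). Padi4 in blood monocytes stood at 17.5% of its neutrophil level, and the 7 mature neutrophil markers summed in the same monocyte sums to 0.65% of theirs. The 7 immature neutrophil markers summed to 3580 CPM in blood monocytes and 1594 CPM in mature neutrophils of blood, so that they stood at 225% of their level in mature neutrophils. Both marker lists include genes of the class rules, and monocytes that met a neutrophil rule were left out. The shares of these markers are thus partly set by the rules and cannot be weighed against that of Padi4. The part of neutrophil RNA in the Padi4 level of monocytes was not tested. Of the other oxidases and their regulators, Nox1, Nox3, Nox4, Noxo1, Noxa1, Duox1 and Duox2, none had the 100 UMIs needed in any comparison, and neither had Padi1, Padi3 or Padi6.

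Monocytes of bone marrow differed from those of blood in 2 of the 6 genes, both lower. In bone marrow against blood, Cyba averaged 1763 ± 162 CPM in bone marrow and 2229 ± 233 CPM in blood (-0.34 ± 0.07, adjusted p = 5.23e-05), and Padi4 27.4 ± 13.9 and 42.8 ± 11.3 CPM (-0.61 ± 0.20, adjusted p = 0.012). Cybb lay between 640.0 and 1055 CPM, median 773, in bone marrow, against 828 to 1301 CPM, median 1086, in blood, with overlap; its -0.43 ± 0.18 had an adjusted p of 0.0531. With the hashtag as a replicate block Cybb was called at -0.42 (adjusted p = 0.0101) and Rac2 at 0.18 (adjusted p = 0.031), which made 4 genes called instead of 2. With TMM factors Cybb (-0.58, adjusted p = 0.00595) and Ncf4 (-0.28, adjusted p = 0.0396) were called, and DESeq2 (-0.47, adjusted p = 0.0317) and raised class thresholds (-0.55, adjusted p = 0.0168) called Cybb. Leaving out blood replicate 5, 7 or 8 or bone marrow replicate 4 also gave the Cybb call (adjusted p between 0.0301 and 0.0375), and leaving out blood replicate 5 or 6 that of Rac2. The Cyba call was lost with cells thinned to 1000 UMIs (-0.17, adjusted p = 0.217) and the Padi4 call with overlapping classes kept (-0.16, adjusted p = 0.437). Called were 40.1% of 8282 tested genes, 25.2% higher and 14.9% lower; 62.8% of calls were higher with total UMIs and 46.2% with TMM factors. Of 10 tested partners 2 were higher and 2 lower, and Rap1b fell by 0.64 ± 0.08 on the log2 scale. The 9 progenitor markers, all detected in bone marrow, summed to 605 to 1384 CPM in monocytes of bone marrow, against 25.2 to 161 CPM in those of blood with Ms4a3 and Gfi1 at 0. The 8 macrophage markers summed to 266 to 709 CPM in bone marrow, against 594 to 2050.2 CPM in blood, with C1qa at 0 in both. Their part in the differences was not tested.

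**Figure D4:**
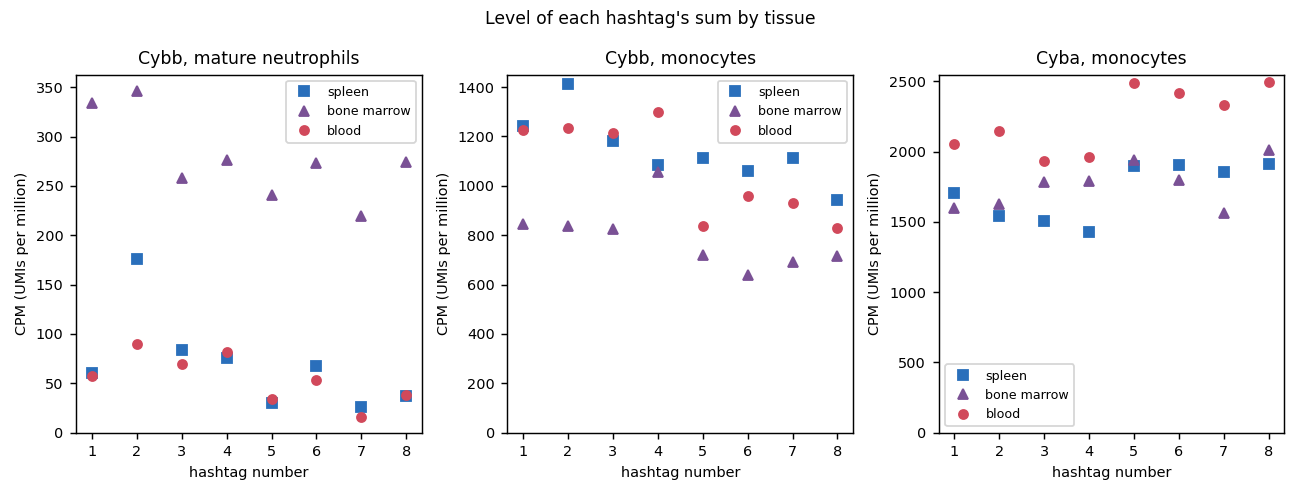
Level in CPM (y axis, from 0) of Cybb in mature neutrophils (left), Cybb in monocytes (middle) and Cyba in monocytes (right) in the sum of each hashtag (x axis, number 1 to 8), by tissue. Spleen hashtag 2 stood at 175 CPM of Cybb in mature neutrophils, above the other 7 spleen sums.

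In monocytes of spleen against blood, 2 of the 6 genes were called, both lower. Cyba lay between 1428 and 1911 CPM, median 1782, in spleen, against 1936 to 2494 CPM, median 2241, in blood, with no overlap (-0.38 ± 0.07, adjusted p = 3.31e-05). Ncf4 averaged 219 ± 24.2 CPM in spleen and 288 ± 48.2 CPM in blood (-0.41 ± 0.09, adjusted p = 0.000588), a call lost with cells thinned to 1000 UMIs (-0.10, adjusted p = 0.826). Cybb averaged 1144 ± 139 CPM in spleen and 1066 ± 196 CPM in blood (0.10 ± 0.18, adjusted p = 0.741). Called were 23.1% of 8022 tested genes, 18% higher and 5.09% lower; 78% of calls were higher with total UMIs and 52.1% with TMM factors. Of 10 tested partners 2 were higher and none lower, with Dock2 at 0.61 ± 0.09. Cyba was thus lower in spleen than in blood in both neutrophils and monocytes, which come from the same libraries, and the difference between the 2 effects, neutrophils minus monocytes, was 0.13 ± 0.10 (adjusted p = 0.694). In that interaction edgeR called none of the 6 genes and 85 of 9977 tested genes (0.852%), 0.0702% higher and 0.782% lower, with 1103 at an unadjusted p below 0.05; DESeq2 called none of the 6 and 175 genes. Of those calls 8.24% were higher with total UMIs and 20.6% with DESeq2.

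Genes whose level over the 11 groups was most like that of each member were sought among 5561 genes with at least 50 CPM in some group. Closest to Cybb were Plekhg1 (r = 0.93), Myl6 (0.92) and Lyz2 (0.91), to Cyba Actr3 (0.94), Myl6 (0.92) and Plekhg1 (0.92), and to Ncf4 Plekhg1 (0.93), Myl6 (0.93) and Cib2 (0.92). Closest to Ncf1 were Pde2a (0.96), Ifnlr1 (0.95) and Tnfsf13b (0.95), to Rac2 R3hdm4 (0.97), Rinl (0.96) and Pik3cb (0.96), and to Padi4 Bmx (0.98), Unc119 (0.97) and Abtb1 (0.97). These are Pearson correlations of log2(mean CPM + 1) over 11 means that share 4 libraries, given as a description.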

How the data were processed

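Raw UMI counts per gene and cell, and counts of hashtag antibodies, were used as deposited by the authors; the submitters' processing notes name Cell Ranger 7.0.1 and the mouse build mm10. The barcode suffixes 1 to 4 were taken as blood, bone marrow, spleen and tumor. The members and lists were chosen with earlier results of these data known.

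A cell belonged to a hashtag with a count of at least 20 and at least 3 times the next (17960 of 20012 cells). That also removed doublets of different hashtags, and no other doublet caller was run. A cell that met both neutrophil rules counted as immature, and cells that met other pairs of rules were left out, 26.4% of tumor cells among them. The labels say that hashtags tell mice, organs and conditions apart but give no key, so each hashtag within a tissue was taken as 1 mouse. The p-values measure the spread between hashtags, which may be partly technical. That spread may also hold a difference between genotypes, since each tissue held wild-type and knockout mice. UMIs were summed per hashtag, tissue and class where at least 20 cells (5 in tumor) were present, giving sums of 32148 to 4186975 UMIs.

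One edgeR 4.0.16 quasi-likelihood fit (R 4.3.3, limma 3.58.1) covered 69 sums of 11 groups and 12 comparisons, 2 of them interactions, with total UMIs as library sizes. Benjamini-Hochberg adjustment ran over genes with at least 100 UMIs in the groups compared, and an adjusted p below 0.05 was called. Tables and figures used Python 3.11.15 with numpy 2.4.6, pandas 2.3.3, scipy 1.17.1 and matplotlib 3.10.9, and the fit was tested on simulated counts. Exact intervals are at 95%, and they and the limits from 3 counts cover counting error only.

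Same-numbered hashtags were checked for pairing by correlating deviations from group means. They paired for mature and immature neutrophils of bone marrow (every r at least 0.11), mature neutrophils and monocytes of blood (0.173), mature neutrophils of spleen and blood (0.358) and monocytes of bone marrow and blood (0.18), and not for neutrophils and macrophages of tumor (2 pairs, lowest r -0.000595). The lowest r was smaller but positive for mature neutrophils of bone marrow and blood (0.059, median 0.304) and monocytes of spleen and blood (0.036, median 0.344). For mature neutrophils of tumor and blood it was 0.0364, with a median of 0.0651. Named are the 6 members, genes of the partner, other oxidase and deiminase lists, and up to 3 called genes with the largest changes in each of the lists for reactive oxygen and NADPH; 1 gene of the partner list is not reported here. Alternatives were TMM factors, DESeq2 1.42.0, no filter, a hashtag block, a fit of the compared groups alone, cells thinned to 1000 UMIs, thresholds raised by 1.5 times, precedence for overlapping rules, a hashtag margin of 5, no cells over 5% mitochondrial UMIs, at least 10 cells per sum (added after seeing the data) and leaving out each replicate.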

Additional observations from a re-analysis of the deposited data

Results flagged for a closer look

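Of 54 groups of 4 to 8 sums examined for a sum far from the others, 5 held one, and chance alone flags about 1 in 20 groups. Cybb in mature neutrophils of spleen had 175 CPM in hashtag 2, and the nearest other sum had 84 CPM. Cybb in mature neutrophils of tumor had 25 CPM in hashtag 2, from 1 UMI, and the nearest other sum had 124 CPM. Padi4 in mature neutrophils of tumor had 25.3 CPM in hashtag 6 and 0 in the other 3 sums. With those 3 at 0, any UMI in the remaining sum would be flagged, so this flag was fixed by the low counts. Ncf1 in monocytes of bone marrow had 206 CPM in hashtag 5, with the nearest at 144 CPM. Rac2 in mature neutrophils of blood had 967 CPM in hashtag 5, with the nearest at 853 CPM.

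The change between immature and mature neutrophils differed between spleen and bone marrow, by the test of the difference itself, for Cybb (-2.21 on the log2 scale) and for Ncf1 (-0.85). Mature neutrophils of the 2 tissues also differed in immature neutrophil markers, and the part of that was not tested.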

How the results depend on the processing

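Of 2556 gene values recomputed, 2399 kept direction and call, 47 lost and 42 gained a call, 63 not called at first changed sign, 1 of them to a call (Cyba in the maturation interaction with DESeq2, -0.30), and 5 called values reversed; the cause was not tested except where stated. Reversed were Cybb in tumor over blood neutrophils with raised thresholds (-0.075), Rac1 there with TMM factors (-0.19), Ncf4 in neutrophils over monocytes with TMM factors (0.073), and Rac2 in tumor neutrophils over macrophages with TMM factors (0.064) and with precedence (0.30). Thinning to 1000 UMIs discards counts by construction and left 792 genes called for immature over progenitor cells, 2026 for mature over immature, 9 for immature neutrophils of spleen over bone marrow, 1790, 691 and 728 for mature neutrophils of bone marrow, spleen and tumor over blood, 370 and 175 for monocytes of bone marrow and spleen over blood, 3312 for neutrophils over monocytes, 43 for tumor neutrophils over macrophages, and 195 (maturation) and 3 (tissue) for the interactions. Of the 6 genes it left 0, 1, 0 and 1 called for monocytes of bone marrow, monocytes of spleen, tumor neutrophils over macrophages, and the maturation interaction. For immature neutrophils of spleen over bone marrow, 145 genes were called with TMM factors, 108 with no filter, 22 with raised thresholds and 98 with at least 10 cells. No filter gave 8579 for immature over progenitor cells. A margin of 5 gave 1390 for tumor over blood. For tumor neutrophils over macrophages, 1700 were called with no filter, 253 in the fit of both groups alone, 1119 with precedence and 322 with a margin of 5, and 1 of the 6 genes with TMM factors, in that fit alone and with a margin of 5. The tissue interaction had 175 calls with DESeq2 and 40 with precedence, and the maturation interaction 6 members with DESeq2. Raised thresholds left 0 members for spleen over blood neutrophils. For monocytes of bone marrow over blood, 4 members were called with TMM factors, the block, a margin of 5, no cells over 5% mitochondrial UMIs and at least 10 cells, and 1 with precedence.

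Leaving out 1 replicate gave 22 to 56 genes for immature neutrophils of spleen over bone marrow, lowest without spleen replicate 4 and at 34, 32, 33 and 30 without bone marrow replicate 3 or 7 or spleen replicate 5 or 7, and 2 to 4 members for monocytes of bone marrow over blood; where 1 progenitor or macrophage sum remained it was assumed to vary like the other groups. With the hashtag as replicate block, 4 members instead of 2 were called for monocytes of bone marrow over blood, and Ncf1 in mature over immature neutrophils was called. The block also gave calls of Ncf4 in bone marrow over blood neutrophils (0.18, adjusted p = 0.0331) and Ncf1 in tumor over blood neutrophils (0.48, adjusted p = 0.0104). Same-numbered hashtags had a median r of 0.304 in the first of these comparisons, against -0.117 for other numbers. In the second they had 0.0651, against -0.00663. The block changed no other member call. Over all cells of a class, Cybb had 28.1 CPM in progenitors, 92.8 in mature neutrophils of blood and 209.8 in macrophages, Cyba 369.7 in progenitors and 1949 in immature neutrophils of bone marrow, Ncf4 72.3 in progenitors, Rac2 330.1 in macrophages, and Padi4 10.9 in progenitors and 1.72 in macrophages. Progenitors of spleen and monocytes of tumor could not be fitted, nor could progenitors without cells over 5% mitochondrial UMIs or macrophages with at least 10 cells. Depth limits the tumor values most, since a tumor neutrophil sum of 32148 UMIs cannot show a level below 93.3 CPM from 3 counts.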

Other observations

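In blood monocytes the sums of hashtags 1 to 4 and of hashtags 5 to 8 did not overlap for Cybb and Cyba. Cybb had 1226, 1233, 1213 and 1301 CPM in hashtags 1 to 4, and 836, 959, 929 and 828 CPM in hashtags 5 to 8. Cyba stood the other way, with 2055, 2149, 1936 and 1959.6 CPM in hashtags 1 to 4, and 2488, 2418, 2334 and 2494 CPM in hashtags 5 to 8. In bone marrow monocytes Cybb had 846, 839, 824 and 1055 CPM in hashtags 1 to 4, and 721, 640.0, 691 and 717 CPM in hashtags 5 to 8. In spleen monocytes Cyba had 1707, 1540.0, 1503 and 1428 CPM in hashtags 1 to 4, and 1898, 1901, 1858 and 1911 CPM in hashtags 5 to 8. In mature neutrophils of blood Cybb had 57.6, 89.6, 69.5 and 81.6 CPM in hashtags 1 to 4, and 33.8, 53.7, 15.8 and 38.4 CPM in hashtags 5 to 8. Only groups that split are listed here, and the share of all genes that split the same way was not counted. The split can therefore not be read as particular to Cybb and Cyba. The labels give no genotype for any hashtag, the split was noticed in these values, and it was not tested.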
